A study of Mus musculus with 18 samples.

Results

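The comparison described here sets Foxp3+ CD4 T cells of the small-intestinal epithelium (IEL TR, 3 libraries) against Foxp3+ CD4 T cells of the lamina propria, the connective tissue under the epithelium (LP TR, 3 libraries). RNA was sequenced from 18 libraries of sorted cells in all, and 6 of them enter this comparison. Of 38392 genes in the deposited table, the 13680 with a normalised count of at least 10 in 3 or more of these 6 libraries were kept. Donor cells in every group were C57BL/6 TNa TNb RAG1-/- Foxp3GFP, a strain that cannot rearrange new T-cell receptors and reports Foxp3 by green fluorescence, and the series title calls the precursor clonal. The cells transferred had neither CD8α nor Foxp3-GFP, so the Foxp3+ cells sorted here had gained Foxp3 in the host. Hosts in every group were C57BL/6 TCRa-/- TCRb-/-, which lack their own alpha-beta T cells, and cells were taken 6 weeks after transfer. The other groups, used below as a measure of what Foxp3+ cells share with their neighbours, are CD4+CD8α+ cells (DP) and CD4+ cells without CD8α and Foxp3 (SP) from both sites, with 3 libraries each. The labels call the libraries biological replicates without naming the animals, so the p-values measure the spread between these libraries, which may be technical.

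Foxp3 is the transcription factor that defines regulatory T cells, which restrain other immune cells. In the gut these cells live mostly in the lamina propria, where they see antigen and cytokines, while the epithelium is populated by T cells held there by the integrin that Itgae encodes and often bearing CD8α. T cells that signal through the antigen receptor or through tumour necrosis factor receptors switch on NF-kappaB, MAP kinase and cyclic AMP pathways, and also the genes that shut these pathways down again.

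The labelled population carried its defining transcripts at both sites. Foxp3 (ENSMUSG00000039521, GRCm38 chromosome X, 7573644 to 7595245) had 66.2, 164 and 125 normalised counts in IEL TR libraries 1 to 3, against 113, 157 and 138 in LP TR libraries 1 to 3. The ranges overlapped, and the log2 fold change of -0.28 ± 0.39 (SE, n = 3 each) did not pass the test (adjusted p = 0.835). The means of the other groups were 21.7 ± 16.7 in IEL SP, 4.47 ± 5.37 in LP SP, 12.01 ± 10.1 in IEL DP and 0.880 ± 0.852 in LP DP (SD, n = 3 each), all below the lowest TR library. Ikzf2, which encodes the regulatory cell factor Helios, had 11303, 10855 and 10250 in IEL TR and 10177, 8271 and 8381 in LP TR, higher in each IEL TR library but short of the threshold (0.28 ± 0.10, adjusted p = 0.326). Cd4 had 543, 751 and 596 in IEL TR and 616, 619 and 567 in LP TR, at overlapping levels. Cd8a, the coreceptor chain that the DP sort selects, stayed between 3.15 and 8.25 in IEL TR and between 9.74 and 19.5 in LP TR and was under the filter. Itgae, which encodes the integrin CD103 that binds epithelial E-cadherin, had 3959, 3221 and 3010 in IEL TR and 2134, 2698 and 2307 in LP TR. Every IEL TR library lay above every LP TR library for Itgae, as also for Ikzf2 and for 9.45% of all genes. The Itgae difference of 0.51 ± 0.15 did not pass (adjusted p = 0.222).

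IEL TR library 1 stood apart from the rest. The 6 libraries held between 5093955 and 8851347 reads, and library 1 of IEL TR was not shallow at 7108325, yet 12224 genes reached 10 there, against 13322 and 13529 in the other IEL TR libraries and 13539 to 13747 in LP TR. Of 7776 genes with at least 50 in each other library, 266 were at least 8-fold below every other library in IEL TR 1 and 18 were at 0. In IEL TR 2 and 3 the first count was 10 and 12, in LP TR it was 0, and no other library had a gene at 0 by this measure. Orc6, a subunit of the complex that marks replication origins, illustrates the loss with 0, 72.9 and 60.1 in IEL TR and 183, 149 and 189 in LP TR, and Aldoc, a glycolytic aldolase, with 0, 57.8 and 50.5 in IEL TR and 131, 112 and 105 in LP TR. Conversely 8 predicted genes, chosen after their values were seen, took 21% of the normalised counts in IEL TR 1, against 5.64% and 7.7% in IEL TR 2 and 3 and 4.01% to 6.5% in LP TR. Correlations of log2 values between libraries ran from 0.763 to 0.858 within IEL TR and from 0.931 to 0.938 within LP TR. The median SD over genes on the log2 scale was 0.516 in IEL TR and 0.299 in LP TR.

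**Figure D1:**
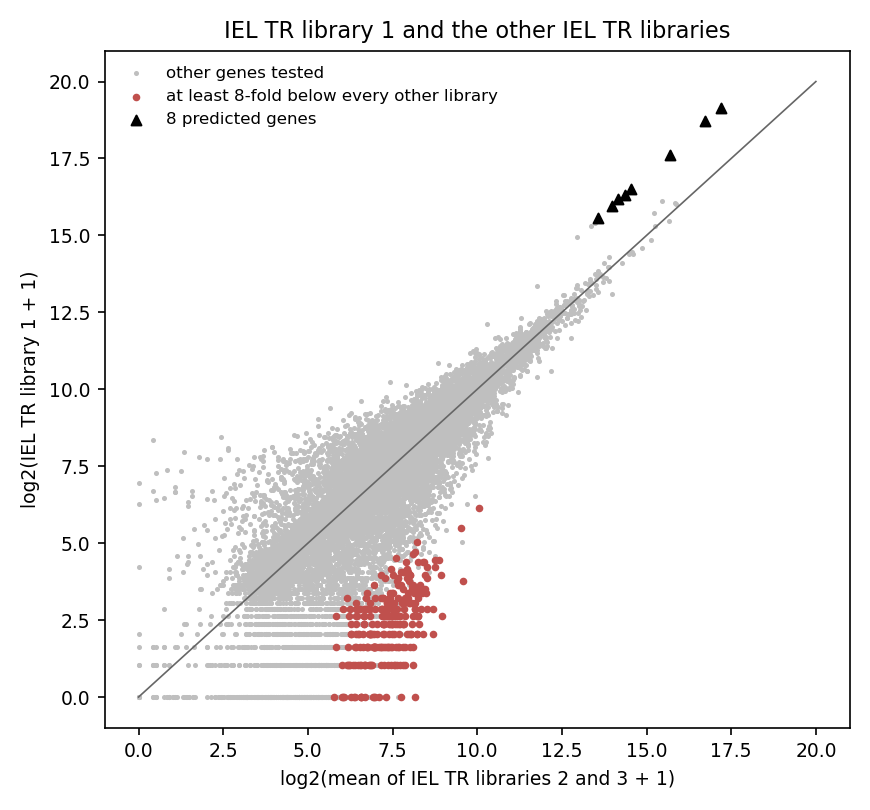
Each point is a gene tested, with log2(normalised count + 1) in IEL TR library 1 on the vertical axis and the same for the mean of IEL TR libraries 2 and 3 on the horizontal axis. The 266 red genes lie at least 8-fold below each of the 5 other libraries, the 8 black triangles are the predicted genes that took 21% of library 1, and the line marks equal values.

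Against that spread, 87 genes (0.636% of those tested) differed between IEL TR and LP TR at an adjusted p under 0.05, and nearly all were lower in the epithelium: 82 fell and 5 rose. The genes that fell and stayed well measured include Ifrd1, the growth factor Areg, the MAP kinase phosphatases Dusp10, Dusp4 and Dusp5, the NF-kappaB regulators Tnfaip3, Nfkbiz and Birc3, the transcription factors Rora, Fosl2 and Crem, the inhibitory receptor gene Ctla4 and the metabolic enzymes Odc1, Got1 and Dgat1. In 69 of the 82 the IEL TR mean was 10 or more, a limit set after the data were seen, and these fell by 0.68 to 4.36 on the log2 scale with a median of -1.89. The remaining 13 were nearly absent from IEL TR, and false calls of that kind arose in simulated libraries with the spread of each group. No fall as large as these was set there, so the simulation cannot say what share of the 13 is false. The median over all genes tested was -0.04, and 1839 genes had an unadjusted p under 0.05 (956 lower and 883 higher). Without IEL TR library 1, 201 genes (1.47%) passed, 183 of them lower (1.34%) and 18 higher, and 85 of the 87 were among them. In bulk RNA, fewer cells with a transcript and less of it per cell cannot be told apart, and neither can the site and the way cells were freed from it.

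**Figure D2:**
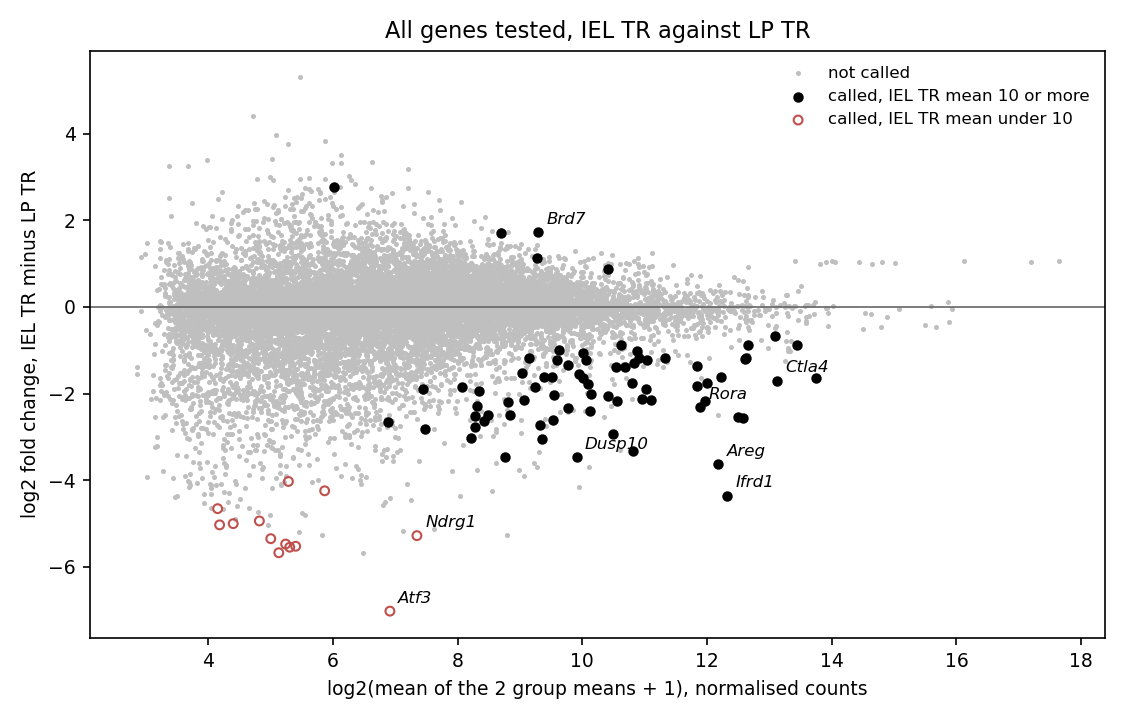
Each point is 1 of the 13680 genes tested, with the log2 fold change (IEL TR minus LP TR) on the vertical axis and its level on the horizontal axis. Filled black points are called genes with an IEL TR mean of 10 or more, open red circles are called genes under it, and 82 of the 87 called genes lie below 0.

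The largest fall among well-measured genes was that of Ifrd1 (ENSMUSG00000001627, chromosome 12, 40201567 to 40248504), which encodes a transcriptional coregulator. Ifrd1 had 378, 464 and 607 normalised counts in IEL TR and 10016, 8553 and 10815 in LP TR, a log2 fold change of -4.36 ± 0.20 (adjusted p = 0.00594). The libraries of each site lay close together, including IEL TR 1, and the gap between sites was many times their spread.

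Among secreted and surface proteins, Areg (ENSMUSG00000029378, chromosome 5, 91139599 to 91148432) encodes amphiregulin, an epidermal growth factor family ligand that regulatory T cells can supply to damaged tissue. Areg had 1296, 448 and 558 in IEL TR and 8130, 8853 and 8521 in LP TR (-3.63 ± 0.39, adjusted p = 0.0262). Library 1 was here the highest of the IEL TR libraries and still far below LP TR. Ctla4 (chromosome 1, 60887000 to 60915832), the receptor by which regulatory cells strip costimulatory ligands from other cells, had 4355, 4651 and 3482 in IEL TR and 16211, 14740 and 10261 in LP TR (-1.71 ± 0.20, adjusted p = 0.0305). Cd274, which encodes the checkpoint ligand PD-L1, had 133, 113 and 78.4 in IEL TR and 460, 572 and 547 in LP TR (-2.30 ± 0.26, adjusted p = 0.0272). Tnfrsf1b, the tumour necrosis factor receptor prominent on regulatory cells, had 1156, 1178 and 1477 in IEL TR and 3099, 2828 and 2879 in LP TR (-1.22 ± 0.13, adjusted p = 0.0253). None of these 4 genes overlapped between sites, which choosing called genes favours (11% of all genes were lower without overlap). The receptor for interleukin 33, Il1rl1, had 378, 503 and 370 in IEL TR and 956, 1262 and 978 in LP TR and just missed the threshold (-1.35 ± 0.20, adjusted p = 0.0509).

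Several genes of NF-kappaB signalling fell. Tnfaip3 (chromosome 10, 19000910 to 19015657), whose product A20 ends NF-kappaB activation, had 1317, 1475 and 1500 in IEL TR and 4991, 7025 and 7676 in LP TR (-2.18 ± 0.18, adjusted p = 0.0158). Birc3, a ubiquitin ligase of the same pathway that protects from death, had 545, 605 and 445 in IEL TR and 2114, 2200 and 2291 in LP TR (-2.06 ± 0.15, adjusted p = 0.0101). Nfkbiz, an inducible nuclear partner of NF-kappaB, had 1003, 830 and 891 in IEL TR and 2147, 2238 and 2811 in LP TR (-1.39 ± 0.15, adjusted p = 0.0253). In each the IEL TR libraries were tighter than the gap to LP TR. Traf1, an adaptor of tumour necrosis factor receptors, changed by -1.02 ± 0.12 (adjusted p = 0.0305), and Birc2, the paralogue of Birc3, by -1.18 ± 0.15 (adjusted p = 0.0323). Nfkbia, which encodes the inhibitor that holds NF-kappaB in the cytoplasm, had 5065, 3607 and 3615 in IEL TR and 7308, 8793 and 10277 in LP TR without passing (-1.11 ± 0.19, adjusted p = 0.074).

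Of the phosphatases that switch off MAP kinases, Dusp10 (chromosome 1, 184013302 to 184075636), which acts on p38 and JNK, had 201, 168 and 115 in IEL TR and 1492, 1873 and 1915 in LP TR (-3.47 ± 0.25, adjusted p = 0.0101). Dusp4 had 54.6, 72.2 and 78.4 in IEL TR and 551, 690 and 1160 in LP TR (-3.47 ± 0.34, adjusted p = 0.0198). Dusp5, which acts on ERK in the nucleus, had 483, 509 and 503 in IEL TR and 1362, 1538 and 1771 in LP TR (-1.63 ± 0.14, adjusted p = 0.0158). The 3 phosphatase genes did not overlap between sites, which choosing called genes favours (11% of all genes were lower without overlap). Dusp10 and Dusp4 were about equally reduced. Other signalling genes that fell were Gna13, a G-protein alpha subunit, with 652, 762 and 823 in IEL TR and 3273, 3043 and 3394 in LP TR (-2.12 ± 0.13, adjusted p = 0.00594), Rgs2, which damps G-protein signals (-2.16 ± 0.29, adjusted p = 0.0476), Pde4b, which breaks down cyclic AMP (-1.34 ± 0.13, adjusted p = 0.0198), and the kinase genes Jak2 (-1.79 ± 0.17, adjusted p = 0.0198) and Pim1 (-1.07 ± 0.12, adjusted p = 0.0272). Stat5b, a mediator of interleukin 2 signals, was at 342, 343 and 346 in IEL TR and 752, 699 and 920 in LP TR (-1.19 ± 0.16, adjusted p = 0.048).

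**Figure D3:**
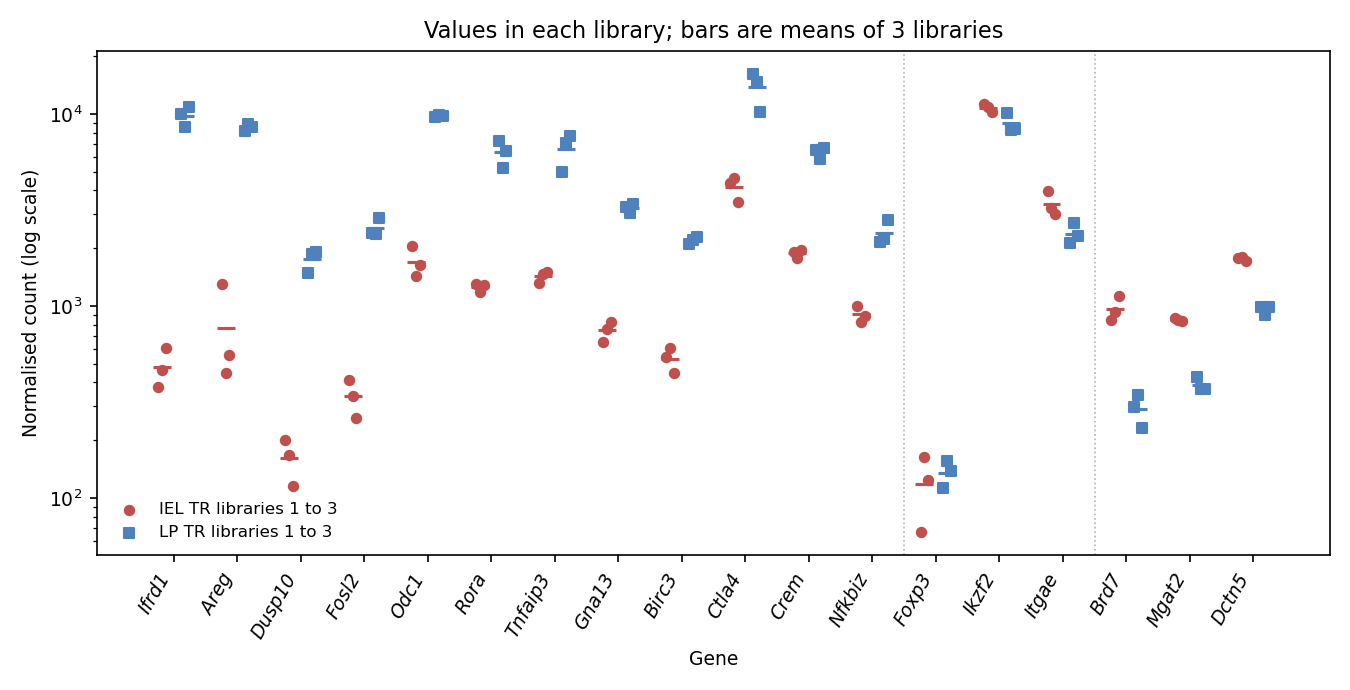
Normalised counts (log axis) of 18 genes in each library, IEL TR as red circles to the left of LP TR as blue squares, with short bars at the means of 3 libraries. The first 12 genes fell in IEL TR, the middle 3 (Foxp3, Ikzf2 and Itgae) did not pass the test, and the last 3 rose.

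Among transcription factors, Rora (chromosome 9, 68653786 to 69388246), a nuclear receptor of gut-resident lymphocytes, had 1304, 1186 and 1290 in IEL TR and 7237, 5244 and 6433 in LP TR (-2.31 ± 0.14, adjusted p = 0.00594). Fosl2 (chromosome 5, 32135801 to 32157842), a Fos-family partner in AP-1, had 413, 341 and 261 in IEL TR and 2391, 2384 and 2889 in LP TR (-2.93 ± 0.20, adjusted p = 0.0101). Crem, a cyclic AMP-responsive regulator, had 1922, 1785 and 1960 in IEL TR and 6497, 5850 and 6679 in LP TR (-1.75 ± 0.10, adjusted p = 0.00594). The sites were fully apart for all 3 genes, as for 11% of all genes in this direction. Choosing called genes favours this, so it is not added support. Bhlhe40, a repressor of Il10 in T cells, had 296, 294 and 266 in IEL TR and 904, 1083 and 1623 in LP TR (-2.03 ± 0.24, adjusted p = 0.0305), while Il10 itself, which encodes an anti-inflammatory cytokine, had 160, 456 and 74.9 in IEL TR and 1459, 1219 and 684 in LP TR and did not pass (-2.59 ± 0.68, adjusted p = 0.185). Skil, which restrains TGF-beta signalling, was abundant at both sites and fell by 0.87 ± 0.10 on the log2 scale (adjusted p = 0.0272).

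Metabolic genes that fell included Odc1, the first enzyme of polyamine synthesis, with 2048, 1425 and 1640 in IEL TR and 9698, 9881 and 9804 in LP TR (-2.54 ± 0.14, adjusted p = 0.00594). Of the other called genes, 4 are Odc1 pseudogenes that share between 42.7% and 62.9% of their 25-base words with it, so reads may be split among them and they are not separate evidence. Got1, the cytosolic aspartate aminotransferase, had 263, 508 and 248 in IEL TR and 3361, 3724 and 2689 in LP TR (-3.33 ± 0.31, adjusted p = 0.019). Dgat1, which completes triglyceride synthesis, had 1273, 2721 and 1498 in IEL TR and 9806, 11862 and 9370 in LP TR (-2.57 ± 0.29, adjusted p = 0.0272). Both spread more among IEL TR libraries than Odc1 did but stayed well apart from LP TR. The amino acid transporter chain Slc3a2 fell by 1.89 ± 0.22 on the log2 scale (adjusted p = 0.0299) and the transfer RNA synthetase Eprs by 2.40 ± 0.29 (adjusted p = 0.0305). The endoplasmic reticulum stress sensor Ern1 and the chaperone Hspa5 had changes of -1.90 ± 0.24 (adjusted p = 0.0349) and -0.87 ± 0.10 (adjusted p = 0.0256).

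RefSeq promoter windows (GRCm38.p6, the 250 bases before a start site) were searched for 4 motifs. Windows were at hand for 48 of the 69 well-measured genes that fell and for 8454 of all genes tested. A kappaB site was present in a window of 11 of the 48 (22.9%), against 5.38% of all genes with a window. The cyclic AMP response element TGACGTCA was found in 8.33% against 3.19%, the AP-1 site TGANTCA in 8.33% against 5.29%, and a serum response element in 2.08% against 1.47%. Both strands were read, the patterns were allowed to overlap, and a gene with several windows counted once. These are letter matches, with no test and no measure of binding. Areg and Got1 are shown as 2 genes with large falls whose window lies wholly upstream of the annotated gene, with the match in capitals, a cyclic AMP response element in Areg (chr5:91139349-91139598, plus strand) and a kappaB site in Got1 (chr19:43524606-43524855, minus strand).
Areg: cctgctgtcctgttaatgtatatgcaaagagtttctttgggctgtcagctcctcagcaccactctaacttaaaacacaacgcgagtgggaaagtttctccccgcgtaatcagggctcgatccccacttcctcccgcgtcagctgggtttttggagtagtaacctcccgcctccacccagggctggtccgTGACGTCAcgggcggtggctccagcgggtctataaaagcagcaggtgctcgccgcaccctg
Got1: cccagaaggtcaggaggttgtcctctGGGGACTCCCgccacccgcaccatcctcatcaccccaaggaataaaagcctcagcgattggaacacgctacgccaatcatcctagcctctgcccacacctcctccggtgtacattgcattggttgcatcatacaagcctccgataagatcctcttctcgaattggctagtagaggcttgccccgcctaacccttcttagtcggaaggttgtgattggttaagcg

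The rule of largest change picked mostly genes that were almost absent from IEL TR, where few reads set the value and the fitted change depends on the added 1. Atf3, a stress-induced transcription factor, had 0, 0.69 and 1.74 in IEL TR and 155, 163 and 398 in LP TR (-7.02 ± 0.60, adjusted p = 0.0158). These are 3 reads against 601, an IEL TR level of 0.358% of that in LP TR with an exact counting interval of 0.0736% to 1.05% at 95% confidence. Ndrg1, a gene induced by stress and low oxygen, was better measured at 7.35, 6.19 and 7.84 in IEL TR and 379, 270 and 302 in LP TR (-5.28 ± 0.31, adjusted p = 0.00594), or 2.2% of the LP TR level (interval 1.42% to 3.27%). Its IEL TR libraries were nearly equal to each other. The same rule named Ifrd1, Prim2, Agpat9, Ndc80, Erlin1, Kif4 and the pseudogene Fabp5l2. Apart from Ifrd1, each of these had 1 to 4 reads over the 3 IEL TR libraries together. Ndc80 and Kif4 serve chromosome segregation and Prim2 is a primase subunit.

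Only 5 genes rose in the epithelium (0.0365% of those tested). Brd7 (chromosome 8, 88331039 to 88362194), a bromodomain subunit of a chromatin remodelling complex, had 844, 929 and 1121 in IEL TR and 298, 345 and 231 in LP TR (1.73 ± 0.21, adjusted p = 0.0305). For Brd7 every IEL TR library was more than 2-fold above every LP TR library. Mgat2, a Golgi enzyme of N-glycan branching, had 870, 844 and 831 in IEL TR and 425, 369 and 368 in LP TR (1.13 ± 0.14, adjusted p = 0.0309). Also higher were Dctn5, a dynactin subunit (0.89 ± 0.11, adjusted p = 0.0305), and the long noncoding RNA AI504432 (1.71 ± 0.21, adjusted p = 0.0308). Just short of the threshold were Lamp1, a lysosomal membrane protein, with 803, 896 and 1014 in IEL TR and 410, 394 and 455 in LP TR (1.10 ± 0.16, adjusted p = 0.0506), and Gdf11, a TGF-beta family ligand (1.09 ± 0.16, adjusted p = 0.0524).

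The 27 gene lists held 387 different genes that were tested, and 12 of them passed, all lower (3.1%, against 0.599% lower over all genes). The lists were chosen with earlier results of these data known, so a share above that of all genes is not independent support. In the regulatory core, 1 of 19 members passed (Ctla4, lower), 14 of 19 lay below 0 and the median was -0.44, which was 0.09 without IEL TR 1. Its members at higher values in IEL TR include Nrp1, a semaphorin receptor, with 894, 608 and 1110 in IEL TR and 272, 428 and 328 in LP TR (1.33 ± 0.29, adjusted p = 0.128). Tnfrsf4, which encodes the costimulatory receptor OX40, stood at 3364, 1752 and 2784 in IEL TR and 5350, 5133 and 6801 in LP TR (-1.17 ± 0.26, adjusted p = 0.135). Neither gene passed, neither overlapped between sites, and they point in opposite directions. Of the 19 members, 3 were higher and 6 (31.6%) lower without overlap, against 9.45% and 11% of all genes. Among genes of gut effector regulatory cells 1 of 19 passed (Areg), with a median of -0.76. Without IEL TR 1, 2 passed, both lower (1.34% of all genes), and the median was -0.497. In the CD8 and intraepithelial list 0 of 7 tested members passed by limma, 1 (of all genes, 9.45%) had every IEL TR library above every LP TR library, and the median was -0.06, close to that of all genes.

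Genes that respond to the T-cell receptor had 2 of 17 members called (Tnfaip3 and Dusp5, both lower) and a median of -0.59. Over all genes 0.599% were called lower, the share that applies to this list and those that follow. Without IEL TR 1, 5 members passed, all lower (1.34% of all genes), and the median was -0.985. Between sites the list also fell in the neighbours, with a median of -1 in SP and -0.914 in DP. In each of them 8 members were called lower, against 6.18% of all genes in SP and 7.46% in DP. Nr4a1, a direct readout of receptor signalling, had 449, 227 and 207 in IEL TR and 888, 874 and 1762 in LP TR without passing (-2.004 ± 0.41, adjusted p = 0.114). Of the immediate early and dissociation-associated genes, those that respond fastest to stimulation or tissue handling, 2 of 21 passed (Fosl2 and Atf3) and the median was -0.04, the same as for all genes to 2 decimals. Fos stood at 2420, 2422 and 2036 in IEL TR and 1178, 1643 and 1701 in LP TR. It was higher in each IEL TR library, as were 9.45% of all genes, without passing (0.62 ± 0.18, adjusted p = 0.215). Members of this list therefore lay on both sides, 11 below 0 and 10 above. Between sites its median was -0.805 in SP and -0.988 in DP, against 0.0168 and 0.0494 over all genes. In SP 11 members were called lower (6.18% of all genes) and in DP 12 (7.46%), with 0 higher in either. A test of the difference between populations called 0 members from SP and 2 from DP (0.132% of all genes in each). Among the IL-2 and STAT5 response genes 2 of 14 passed, both lower (Pim1 and Stat5b). The TGF-beta, homing, survival and type 3 lists had 1 called member each, which were Skil of 16, Rgs2 of 27, Tnfrsf1b of 15 and Rora of 6, all lower.

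None of the 20 proliferation genes passed by limma, yet all 20 lay below 0 with a median of -1.37, and 11 of 20 (55%) had every IEL TR library below every LP TR library, against 11% of all genes. Rrm2, the ribonucleotide reductase subunit of dividing cells, had 44.1, 59.8 and 41.8 in IEL TR and 310, 832 and 338 in LP TR (-3.18 ± 0.44, adjusted p = 0.0504). Mki67, the Ki-67 antigen, had 11.6, 46.1 and 33.1 in IEL TR and 157, 322 and 124 in LP TR (-2.77 ± 0.62, adjusted p = 0.136). Both were low in all IEL TR libraries, and LP TR 2 was the highest LP TR library for each. The list median was -1.50 without IEL TR 1, 0.02 between sites in SP and -0.50 in DP, and a test of the difference between populations called 0 of the 20 with either by limma. The interferon, glycolysis, cholesterol, antigen presentation, cytotoxicity, CD4 helper, type 1, aryl hydrocarbon and retinoid, mitochondrial and ribosomal protein lists had no called member by limma, with medians between -0.32 and 0.10.

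**Figure D4:**
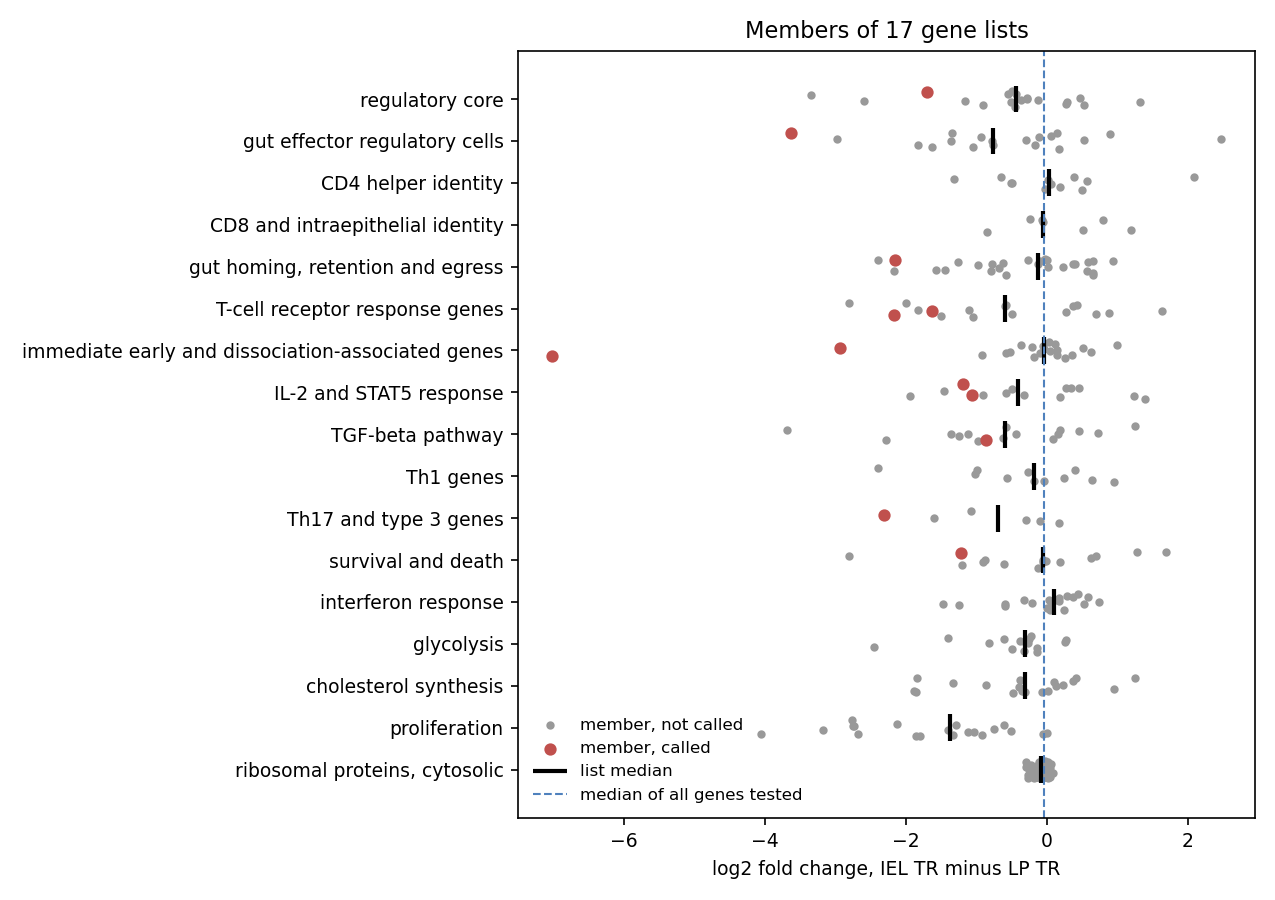
Each point is a tested member of 1 of 17 gene lists, placed by its log2 fold change (IEL TR minus LP TR); red points passed the test, black bars are list medians and the dashed line is the median of all genes. Proliferation genes all lie below 0 with a median of -1.37, while cytosolic ribosomal protein genes crowd around -0.09.

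Of the markers of other cell types, 0 of the 20 tested passed by limma. The 25 epithelium markers summed to 560, 923 and 729 in IEL TR and 245, 320 and 429 in LP TR, so every IEL TR library was above every LP TR library, as was the case for 9.45% of all genes. Of the 25, 12 to 15 were at 0 in each IEL TR library and 14 to 18 in each LP TR library. Only 4 of the 25 were tested, with log2 fold changes above 0 for 3 and below 0 for 1. Reg3g, an antimicrobial lectin of enterocytes, had 51.5, 189 and 18.3 in IEL TR and 2.16, 0 and 0 in LP TR without passing (adjusted p = 0.0961). B and plasma cell markers summed to between 587 and 1758 in IEL TR and between 586 and 2261 in LP TR, and myeloid markers to between 342 and 395 in IEL TR and between 364 and 437 in LP TR. Gamma-delta T-cell markers summed to between 266 and 450 in IEL TR and between 241 and 343 in LP TR, stroma and endothelium markers to between 4501 and 8653 in IEL TR and between 6006 and 9666 in LP TR. Innate lymphoid markers summed to between 6783 and 9182 in IEL TR and between 13836 and 23307 in LP TR. These sums did not overlap, as 11% of all genes did not in this direction. Most of their counts come from genes that T cells also express. Id2 alone, which did not pass, had 7024, 5086 and 5112 in IEL TR and 12665, 10748 and 17862 in LP TR, most of each sum. The part of these cells in the results was not tested.

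The falls were largely shared with the other T cells of both sites. Between sites, 1410 genes (10.3%) passed in SP and 1787 (13.1%) in DP, and of these 565 (4.13%) in SP and 767 (5.61%) in DP were higher in the epithelium. Of the 82 genes that fell in TR, 69 also fell in IEL SP against LP SP and 68 in IEL DP against LP DP, and 67 did so in both. The 69 are 84.1% of the TR list and 8.17% of the 845 genes that fell in SP (6.18% of those tested), and the 68 are 82.9% of the TR list and 6.67% of the 1020 that fell in DP (7.46%). Across the 69 well-measured genes the median change was -1.89 in TR, -2.06 in SP and -1.69 in DP. The 13 genes nearly absent from IEL TR were mostly not shared. Their median was -5.28 in TR, -1.02 in SP and -0.33 in DP, and 3 were called lower in SP and 4 in DP. Ifrd1 shows this, at 402 ± 29.7 in IEL SP and 7306 ± 846 in LP SP (-4.18) while DP cells had 347 ± 93.5 in the epithelium and 5904 ± 966 in the lamina propria (-4.11). Areg fell in SP, with 8.51 ± 2.24 normalised counts in IEL SP and 105 ± 22.6 in LP SP (-3.49). Its DP values, 5.81 ± 4.74 for the epithelium and 18.5 ± 20.8 for the lamina propria, did not pass (-1.20, adjusted p = 0.195).

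The difference between the site effects was tested directly over the 18 libraries. It passed for 18 genes (0.132%) in TR against SP, 8 above 0 (0.0585%) and 10 below (0.0731%), and for 18 genes (0.132%) in TR against DP, 14 above 0 (0.102%) and 4 below (0.0292%). In simulated libraries with the spread of each group, about as many calls of this test were false as true. A single call here therefore carries less weight than its adjusted p. The simulations made more calls than these data did, and the false share depends on the changes set there. It is therefore not an estimate for the calls here. Icos, the costimulatory receptor on which effector regulatory cells depend, had 4363, 6454 and 5777 in IEL TR and 11661, 11754 and 8419 in LP TR (-0.94). In SP it was 874 ± 52.3 in IEL and 6981 ± 426 in LP (-2.996), and in DP 253 ± 13.8 in IEL and 2760 ± 88.2 in LP (-3.45). TR cells thus kept more of Icos in the epithelium than either neighbour, with differences of 2.05 ± 0.21 (adjusted p = 0.000451) and 2.50 ± 0.21 (adjusted p = 4.9e-05). Cd28, the main costimulatory receptor, had 2179, 2958 and 3236 in IEL TR and 3915, 4891 and 4266 in LP TR (-0.66), and differed from DP by 2.35 ± 0.30 (adjusted p = 0.00542) but not past the threshold from SP (1.64 ± 0.31, adjusted p = 0.0579). Crem, singled out after its values were seen, fell less in TR than in SP by 1.94 ± 0.35 (adjusted p = 0.041) and than in DP by 2.11 ± 0.34 (adjusted p = 0.0166). The kinase gene Pim1 fell less in TR than in SP by 1.51 ± 0.26 (adjusted p = 0.0361). The Icos differences, and that of Cd28 from DP, passed with any 1 TR library left out. Those of Crem and Pim1 from SP kept their size but passed in 1 of the 6 such fits, the one that left out IEL TR 1, with adjusted p up to 0.163 for Crem without IEL TR 3 and 0.16 for Pim1 without IEL TR 2. That of Crem from DP failed without IEL TR 2 (adjusted p = 0.101) or IEL TR 3 (adjusted p = 0.111).

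Tcf7, a factor of naive and memory T cells, had 143, 201 and 613 in IEL TR and 64.9, 70.9 and 48.7 in LP TR (2.08 ± 0.57, adjusted p = 0.201). In the neighbours it was 606 ± 91.6 in IEL SP and 914 ± 83.8 in LP SP, and 322 ± 66.2 in IEL DP and 638 ± 87.2 in LP DP. The difference was 2.68 ± 0.46 against SP (adjusted p = 0.0361) and 3.08 ± 0.45 against DP (adjusted p = 0.00899), and IEL TR 3 was the highest of the TR libraries by far. Without IEL TR 3 the Tcf7 differences were 2.07 (adjusted p = 0.122) and 2.46 (adjusted p = 0.0509), and the difference of Tcf7 from SP also failed without LP TR 1, LP TR 3 or IEL TR 2 (adjusted p = 0.0949, 0.0649 and 0.0797). Fos fell in DP (-1.21) and not in TR, and the difference of 1.83 ± 0.28 passed (adjusted p = 0.0117), at 1.79 without IEL TR 2 (adjusted p = 0.0941) and 1.92 without IEL TR 3 (adjusted p = 0.0688). Itgav, an integrin chain that takes part in activating TGF-beta, had 293, 488 and 727 in IEL TR and 2647, 2089 and 2182 in LP TR (-2.28 ± 0.33, adjusted p = 0.0535). In SP it was 221 ± 11.01 in IEL and 185 ± 43.5 in LP, and the difference from SP was -2.57 ± 0.41 (adjusted p = 0.0271). In DP it was 220 ± 51.6 in IEL and 238 ± 47.4 in LP, and the difference from DP did not pass (-2.16 ± 0.40, adjusted p = 0.0529). Without IEL TR 2 the Itgav difference from SP was -2.59 (adjusted p = 0.101), and it also failed without LP TR 1 or LP TR 3 (adjusted p = 0.0949 and 0.0537). Prim2 had 0, 0 and 0.87 in IEL TR and 111, 48.5 and 43.8 in LP TR, while in SP it was 71.5 ± 32.7 in IEL and 66.5 ± 24.1 in LP. Its difference of -5.75 ± 0.78 from SP (adjusted p = 0.00688) rests on 1 IEL TR read, and it failed without IEL TR 2 (adjusted p = 0.0587).

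**Figure D5:**
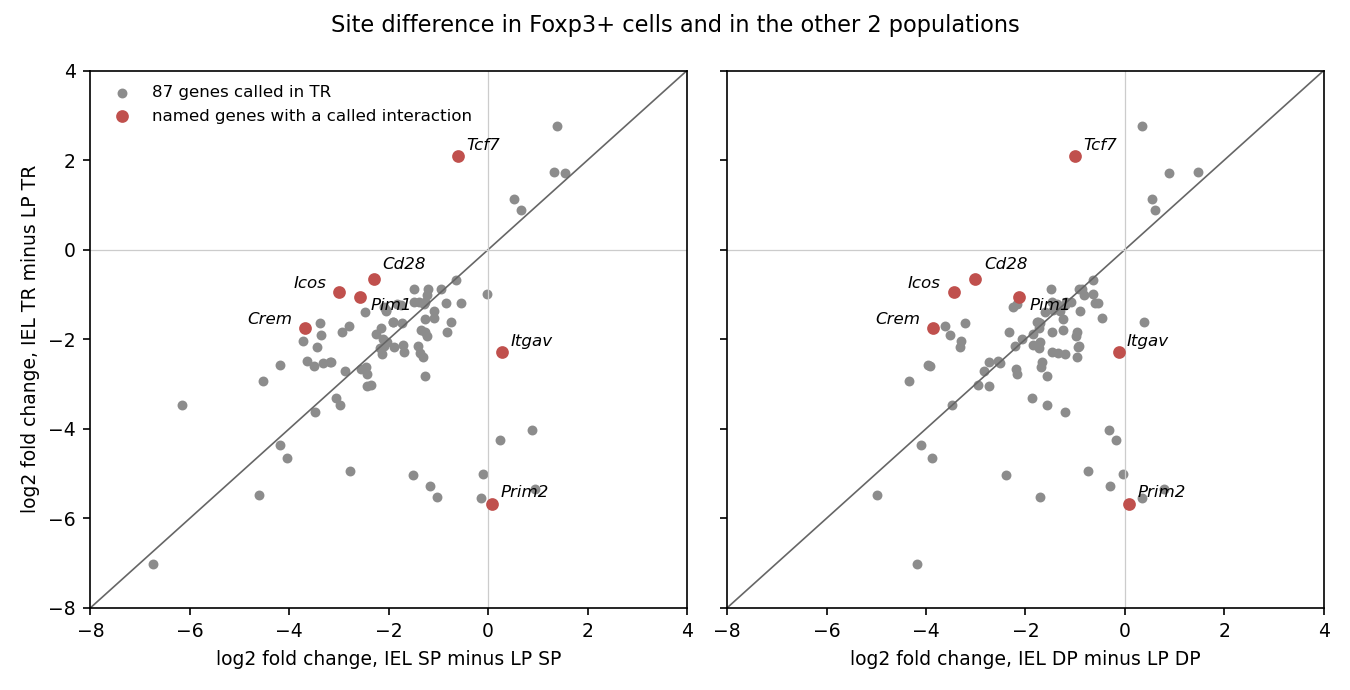
Log2 fold changes between sites in TR (vertical) against those in SP (left panel) and DP (right panel) for the 87 genes called in TR and for 7 named genes with a called difference from SP, DP or both. Most of the 87 lie near the line of equal change, while Icos, Cd28, Crem and Pim1 lie above it and Itgav and Prim2 below it.

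With LP TR 1, 2 or 3 left out, limma called 0 genes (smallest adjusted p 0.0815, 0.0518 and 0.0913; 1181, 1239 and 1290 genes at an unadjusted p under 0.05), whereas edgeR called 87 and DESeq2 890 with all 6 libraries. All 87 called genes kept their direction in each of the 20 other settings that tested them (a filter of 10 in all 6 libraries drops those near 0 in IEL TR), and each kept at least 50% of its size when any library was left out. The 87 were chosen for their separation in these same libraries, so this outcome was close to fixed and is not separate evidence. A fit with the replicate number as a block also called 0 genes (smallest adjusted p 0.0753, with 1793 genes at an unadjusted p under 0.05).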

How the data were processed

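Messenger RNA of sorted cells was made into Nextera XT libraries, per the labels' protocols. Tools named, per the submitters' processing notes, are TopHat and HTSeq, and the build is mm10; no version is given. The authors deposited 1 normalised value per gene and library, a signal in which whole reads are multiplied by 1 factor per library, and reads were recovered by dividing it out. Coordinates come from GENCODE M21 (GRCm38). From the deposited values, log2(value + 1) was fitted with limma 3.58.1 (trend, robust; R 4.3.3) over the 6 TR libraries, with Benjamini-Hochberg adjustment over 13680 genes. Fold changes are on that scale, which understates the change of low genes. Every adjusted p is limma's unless another tool is named, and ± after a fold change is its standard error. Site effects in SP and DP, and differences between site effects, used all 18 libraries with 1 weight per group, which was 0.328 for IEL TR. edgeR 4.0.16 and DESeq2 1.42.0 were run on recovered reads as alternatives. The tests were checked on counts simulated with the spread of each group, the same for all libraries of a group. In the data IEL TR 1 stood apart, with 266 genes at least 8-fold below every other library, against 10 and 12 in IEL TR 2 and 3. The simulations do not copy this. More of their calls were false there than the adjusted p allows. For IEL TR against LP TR most false calls had an IEL TR mean under 10, and nearly all calls under that mean were false. Changes were set only in genes of higher level, so few true ones could land under that mean and this share was nearly fixed by the design. The excess was larger for the differences between site effects, where about as many calls were false as true. Such shares depend on how many changes were set and how large, so they do not carry over to the calls in these data. An exact permutation test of 3 against 3 libraries cannot go below p = 0.1, so none is given. Intervals on reads cover counting error only. Same-numbered IEL TR and LP TR libraries were not taken as paired.

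The rule for named genes took the 10 largest called changes in each direction (mean of 50 or more in the higher group, no overlap, filled with those nearest the threshold), the same without IEL TR 1, up to 4 members per gene list, a few identity genes, up to 5 called differences per direction, and up to 10 genes at 0 in IEL TR 1. It passed over T-cell receptor and immunoglobulin segments, small RNAs, predicted genes and pseudogenes of ribosomal proteins. Other genes, among them most of the well-measured genes that fell, were chosen after their values were seen. Some genes that met the rule are not reported here. Members and lists were chosen with earlier results of these data known.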

Additional observations from a re-analysis of the deposited data

Results flagged for a closer look

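The change between sites in TR cells differed from that in SP or DP cells for the genes that follow. The difference itself was tested over 18 libraries with limma, and each value is a log2 difference of differences. The genes listed are a part of those called, which were 8 above 0 and 10 below from SP, and 14 and 4 from DP. Ifngr1 also passed from SP (1.44, adjusted p = 0.041) and from DP (1.48, adjusted p = 0.0254), and Id2 from SP (-1.74, adjusted p = 0.0361). For these 2 genes no fits with 1 library left out are given. Among those above 0 in the comparison with SP were Icos (2.05), Gp49a (1.98), Lilrb4 (1.84), Tcf7 (2.68), Pim1 (1.51) and Crem (1.94). Among those below 0 were Prim2 (-5.75), Echdc2 (-4.44), Nckap1 (-7.02), Itgav (-2.57) and Lgals3 (-2.90). Among those above 0 in the comparison with DP were Icos (2.50), Cd28 (2.35), Tcf7 (3.08), Hmgb1-ps8 (1.30), Fos (1.83), Crem (2.11) and Gp49a (1.21). Among those below 0 were Prim2 (-5.76), Lgals3 (-3.53) and Mtap (-4.31).

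Gp49a, a gene of an immunoglobulin-like receptor family, had 1806, 1936 and 1332 normalised counts in IEL TR and 3142, 3855 and 3046 in LP TR. Lilrb4 is a close paralogue, so the reads of both are uncertain, as are those of the pseudogene Hmgb1-ps8. Echdc2 had 2.10, 20.6 and 3.49 in IEL TR and 55.2, 67.2 and 63.3 in LP TR. Nckap1 had 0, 4.12 and 12.2 in IEL TR and 35.7, 51.0 and 62.1 in LP TR. These low IEL TR values rest on few reads. Part of both differences comes from SP. There Nckap1 was 58.0 ± 13.7 in IEL and 5.16 ± 3.18 in LP (3.42, adjusted p = 0.00166). Echdc2 was 64.1 ± 19.2 in IEL SP and 26.85 ± 7.37 in LP SP (1.21, adjusted p = 0.0533). Lgals3, a galectin also counted among the epithelium markers, had 2.10, 1.37 and 0.87 in IEL TR and 32.5, 31.1 and 20.7 in LP TR.

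Several of these calls were lost with 1 TR library left out, out of 6 such fits. From SP, Lgals3 failed in 5 (adjusted p up to 0.182), Lilrb4 in 4 (up to 0.153), Echdc2 in 3 (up to 0.102) and Nckap1 in 3 (up to 0.0754). From DP, Mtap failed in 3 (up to 0.0704), Lgals3 in 2 (up to 0.0704), Gp49a in 1 (0.131 without IEL TR 2) and Hmgb1-ps8 in 1 (0.0718 without IEL TR 3). The adjusted p-values are limma's.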

How the results depend on the processing

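The 87 calls became 134 with a pseudocount of 5, 198 with 1 weight per library, 988 with all 18 libraries at equal weights, and 890 with DESeq2. In settings added after the data were seen, the count was 266 with all 18 libraries at 1 weight per group and 149 by edgeR without IEL TR 1. Leaving out 1 library gave 0 to 201. The difference from SP passed for 54 genes with equal weights, 51 with 1 weight per library and 52 by edgeR, and for 4 to 33 with 1 library left out. The difference from DP passed for 49, 37 and 48 genes in the same settings and for 12 to 30 with 1 library left out. Foxp3 was at -0.5592 to 0.0872 with 1 library left out, above 0 without IEL TR 1, where library weights gave 0.105 and edgeR 0.06714. Cd4 was at -0.07703 to 0.156, below 0 without IEL TR 2. Neither passed. The cause was not tested.

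Correlations of deviations between same-numbered IEL TR and LP TR libraries were 0.059, 0.0677 and 0.118, and the libraries were not treated as paired. Each library correlated best with its own number, a hint from the data, and the labels name no animals, so whether the numbers mark a shared source is not settled. With a replicate block, 0 genes passed by limma (1793 at an unadjusted p under 0.05), and the differences from SP and DP passed for 34 and 31 genes.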
